A study of Equus caballus with 4 samples.

Results

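The core circadian clock was examined in equine satellite cells (ESC), the stem cells of skeletal muscle, through 10 genes: ARNTL (BMAL1), CLOCK, PER1, PER2, PER3, CRY1, CRY2, NR1D1, NR1D2 and BHLHE40. The probes were those that the array files name with these symbols. They comprised 24 of 43603 non-control probes, and 9 of the 10 genes had at least 1, out of 24998 different names on the array. NR1D1 is not analysed here. ARNTL had 2 probes, CLOCK, CRY1 and NR1D2 had 4 each, PER2 had 6, and PER1, PER3, CRY2 and BHLHE40 had 1 each.

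The clock is a feedback loop of transcription. ARNTL and CLOCK form a dimer that binds E-box elements and activates the PER, CRY, NR1D and BHLHE40 genes. PER and CRY proteins then inhibit that dimer, the NR1D receptors repress ARNTL, and BHLHE40 competes for E-boxes. In muscle the loop is known to set daily rhythms of metabolic genes and of myogenic factors, and in cultured cells a change of serum can reset its phase.

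The HMB-treated group received β-hydroxy-β-methylbutyrate (HMB, a leucine metabolite) at 50 µM for 24 h, with hydrogen peroxide at 3 mM in the last 1 h. The control group received the same peroxide without HMB, so both groups carry the oxidative stress. Cells came from m. semitendinosus of stallions aged 6 months and were harvested on day 3 of differentiation, and the methods state that the culture with the best scores for viability and fusion was chosen among those of the horses, so the replicates may come from 1 horse. On each of 4 two-colour Agilent arrays, all on 1 slide, HMB-treated RNA was labelled with Cy5 and control RNA with Cy3, and the log2 ratio of the channels is the measurement given below. No array had the dyes exchanged, so a dye effect and the treatment cannot be told apart. The series describes 4 control replicates, but every array's label calls its control replicate 1. Since nothing ties the replicates to separate horses, p-values measure the spread between these arrays, which may in part be technical. A single time point was sampled, so an altered level and a shifted phase of the clock cannot be told apart.

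The arrays had 55.2% to 61.8% of spots above background in a channel, and their ratios correlated at 0.837 to 0.92 across probes. Markers of the skeletal muscle lineage were present, but PAX7, CDH15 and TNNT1 on that list had no probe named for them. Of 14 skeletal muscle markers, 11 had a probe and all 11 were above background on all 4 control arrays. Of these 11, 9 were lower in the HMB-treated group and 0 were higher, while MYOD1 and MYOG were not called (log2 ratios 0.32 and 0.03). Among the 9, MYF6 entered the test through the control channel only, and was above background on 0 HMB-treated arrays. The summed signal of the 11 ran from 248400 to 271000 in control and from 94810 to 146400 in HMB-treated channels. Most of it was MYH3, MYH7 and ACTA1, at 80350 to 88920, 76280 to 84020 and 61000 to 69620 in control. The sum thus does not measure the fall of the 9. Of 6 tested fibroblast markers, 5 were higher. The summed signal of the 7 with a probe, untested TCF21 included, was 197900 to 226400 in control and 228400 to 347700 in HMB-treated channels. Most of it was COL3A1, at 129700 to 158700 and 131600 to 207000. The brightest COL3A1 probe was not called (0.06, limma adjusted p = 0.669), while 3 of its 7 probes were, so the sum does not measure the rise of the 5. None of 5 endothelial and 3 adipocyte markers was above background on all 4 arrays of either channel. By the same thresholds, given below, 10.0% of all symbols with a tested probe were higher and 17.2% lower. Under spike-in scaling, 10 muscle markers were lower and 2 fibroblast markers higher. That scaling called 81.8% of all tested probes, and only 4.94% of the called ones were higher. In such bulk RNA, fewer cells of a type and less RNA per cell cannot be told apart, and the part of these marker shifts in the clock gene values was not tested.

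Sequences are shown for the BHLHE40 probe, the only one for that gene, for the 3 tested CLOCK probes and for 1 of the NR1D2 probes. Capitals mark the 30 bases that a pair of CLOCK probes share. Each is written 5′ to 3′, with its place on EquCab1 as the array files give it.
BHLHE40 A_69_P055116, minus strand of chr16:11193591-11193650: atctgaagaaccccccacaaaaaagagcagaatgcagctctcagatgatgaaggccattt
CLOCK A_69_P006183, plus strand of chr3:70585998-70586057: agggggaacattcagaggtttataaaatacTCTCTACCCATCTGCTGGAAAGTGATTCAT
CLOCK A_69_P006182, plus strand of chr3:70586028-70590747: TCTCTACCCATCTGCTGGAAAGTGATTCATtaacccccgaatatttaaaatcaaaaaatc
CLOCK A_69_P003496, plus strand of chr3:70621956-70624457: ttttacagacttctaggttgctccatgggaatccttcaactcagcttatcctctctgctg
NR1D2 A_69_P056987, minus strand of chr16:58963356-58963415: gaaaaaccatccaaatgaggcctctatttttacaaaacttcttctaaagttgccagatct

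Every probe is 60 bases long. CLOCK A_69_P006182 spans 4720 bases of the genome and A_69_P003496 spans 2502, so each joins at least 1 pair of exons of transcript ENSECAT00000007476. The other probes shown lie in an unbroken stretch. The files give no exon or UTR for a probe.

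A probe was tested when at least 1 channel stood well above background on all 4 arrays. This held for 16 of the 24 clock probes, which covered 6 genes (ARNTL, CLOCK, PER1, PER2, NR1D2 and BHLHE40). A probe was called at a limma adjusted p of at most 0.05, corrected over all 24669 tested probes, together with a fold change (FC) of at least 1.3 in either direction. ARNTL and BHLHE40 were higher in the HMB-treated group, PER2 was lower, and CLOCK, PER1 and the brightest NR1D2 probe were not called. By the brightest tested probe of each gene, 2 of 6 genes were thus called higher and 1 lower. Among all 8319 symbols with a tested probe, 27.3% were called, 10.0% higher and 17.2% lower. By probe, 4 of the 16 were called higher and 2 lower, whereas 28.6% of all tested probes were called, 12.1% higher and 16.4% lower. The median log2 ratio was 0.03 over the 16 clock probes and −0.07 over all tested probes. Of all called probes, 42.5% were higher, a share that became 55% with normexp background correction and loess, 60.1% with loess alone, 54.6% with limma's treat and 4.94% when arrays were scaled to spike-in RNA, a scaling that moved the median of all probes to −0.67.

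**Figure D1:**
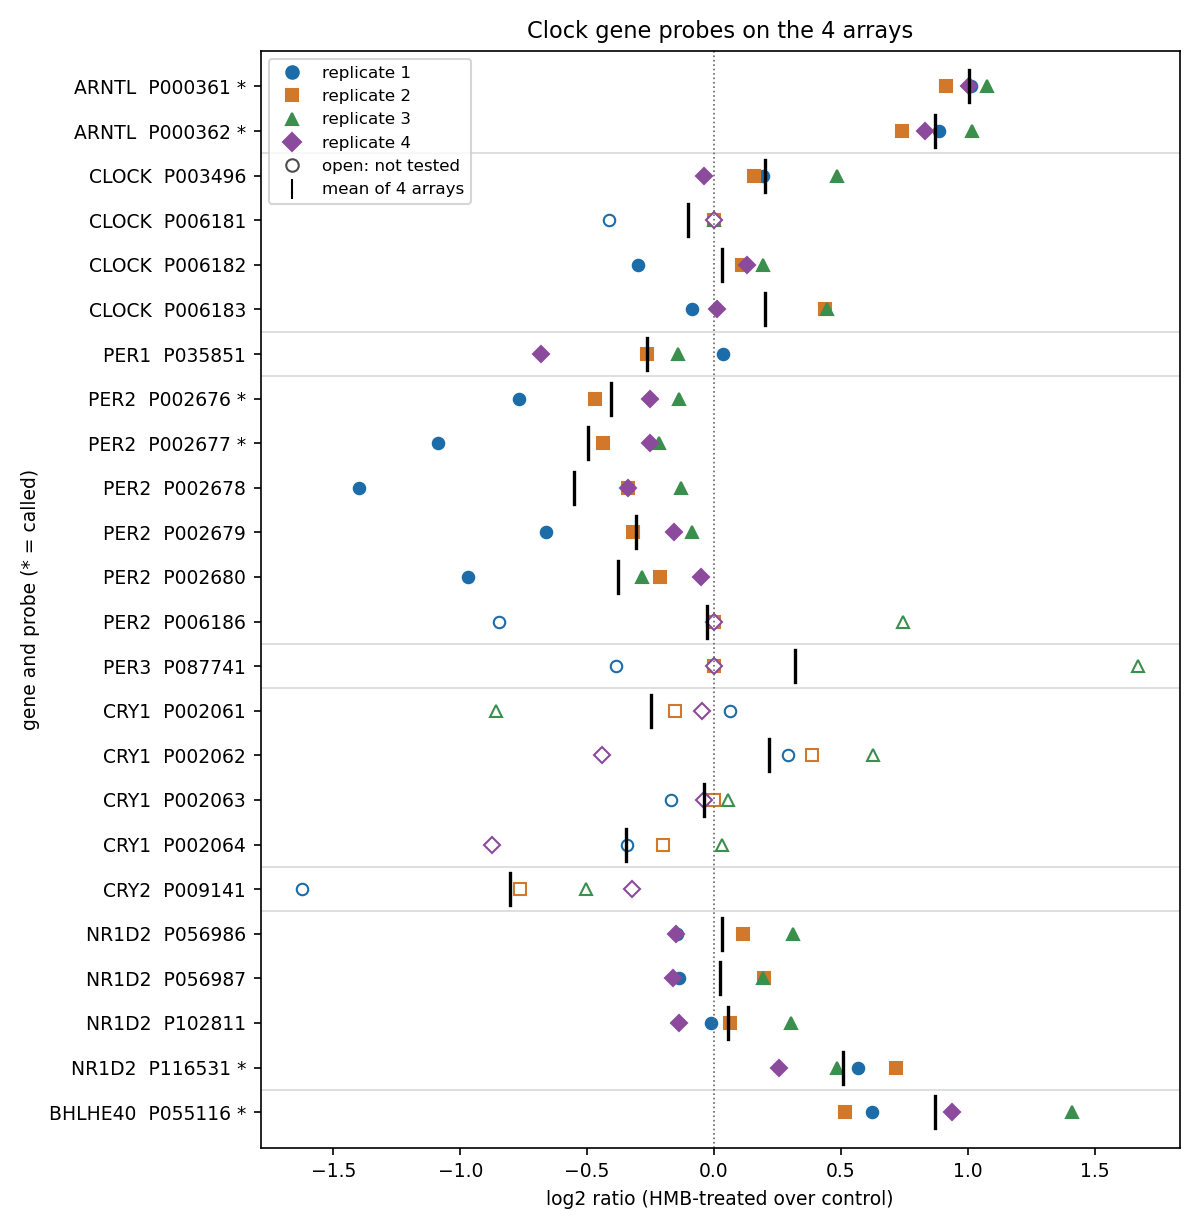
Log2 ratio of HMB-treated over control RNA (x axis) for all 24 clock gene probes (y axis, gene and probe number), 1 symbol per array and a black bar at the mean of 4 arrays. Filled symbols are tested probes, open symbols are probes too dim to test, and an asterisk marks a called probe. Both ARNTL probes and the BHLHE40 probe lie above 0.5 on all 4 arrays, whereas replicate 1 is the lowest array in the 5 tested PER2 probes.

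ARNTL, the DNA-binding partner of CLOCK, gave the most uniform difference among the clock genes. Its 2 probes lie next to each other on transcript NM_001081921, at chr7:69986916-69986975 and chr7:69986856-69986915, and share no stretch longer than 5 bases. With the first, the signal was 378.7, 311.4, 460.3 and 388.1 in control channels of replicates 1 to 4 and 765, 587.6, 971.3 and 780 in the HMB-treated channels. Every HMB-treated signal exceeded every control signal. The log2 ratio was 1.01, 0.92, 1.08 and 1.01 on the 4 arrays, with a mean of 1.00 ± 0.07 (SD, n = 4), an FC of 2.01 and a limma adjusted p of 7.93e-05. The second probe gave 0.89, 0.74, 1.02 and 0.83, with a mean of 0.87 ± 0.12 (SD, n = 4), an FC of 1.83 and a limma adjusted p of 2.40e-04. Its channels did not overlap either, at 339.4 to 427 in control and 566.9 to 865.4 in HMB-treated channels. Counting the mean over both probes as 1 alternative and taking the brighter probe in the others, ARNTL remained called under all 18. Its log2 ratios ran from 0.41 (spike-in scaling) to 1.07. The second probe ended at 0.30 under spike-in scaling, below the FC threshold.

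CLOCK, the histone acetyltransferase that pairs with ARNTL, did not pass the test with any of its 3 tested probes. The brightest, A_69_P006182, had control signals from 88.73 to 126.2 and HMB-treated signals from 96.88 to 144.2, and these overlapped. Its log2 ratio was −0.30 on replicate 1 and 0.11, 0.19 and 0.13 on replicates 2 to 4, with a mean of 0.03 ± 0.22 (SD, n = 4) and a limma adjusted p of 0.793. Replicate 1 stood below the other 3 arrays. A_69_P006183, which shares 30 bases with that probe, gave −0.09, 0.44, 0.45 and 0.01, a mean of 0.20 ± 0.28 (SD, n = 4) and a limma adjusted p of 0.182. A_69_P003496, further along the transcript, gave 0.20, 0.16, 0.49 and −0.04, a mean of 0.20 ± 0.22 (SD, n = 4) and a limma adjusted p of 0.126. On each of the 3 probes, the ratio was above 0 on 3 arrays and below 0 on 1. The ratio of the brightest probe was −0.02 without replicate 3. Under spike-in scaling it was −0.61, beside a median of −0.67 over all probes. The remaining CLOCK probe, A_69_P006181, shares 29 bases with A_69_P006182 but was at background in both channels of all 4 arrays.

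The Period genes encode inhibitors of the ARNTL and CLOCK dimer, and PER1 and PER2 respond quickly to stimuli that reset the clock. PER1 was read by 1 probe on transcript ENSECAT00000014760 (chr11:49823851-49823910). Its signal was 58.2, 75.98, 87.36 and 48.07 in control and 59.7, 63.33, 79.18 and 29.93 in HMB-treated channels, and it stood above background in 3 of the 4 HMB-treated channels. The log2 ratio was 0.04, −0.26, −0.14 and −0.68, with a mean of −0.26 ± 0.31 (SD, n = 4) and a limma adjusted p of 0.117. The ratio was below 0 on 3 of 4 arrays and PER1 was not called. Under spike-in scaling it was −1.01, beside that median of −0.67, and was called lower.

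PER2 had 6 probes on transcript ENSECAT00000014506, of which 5 were tested. These 5 start 1 base apart between chr6:24305190 and chr6:24305253 and share 56 to 59 of their 60 bases, so they read 1 site and are not independent of each other. The brightest, A_69_P002676, had signals of 259.5, 152.2, 189.3 and 148.2 in control and 152.3, 110, 172.2 and 124.4 in HMB-treated channels. Each array had the lower signal in its HMB-treated channel, although the ranges of the channels overlapped. The log2 ratio was −0.77, −0.47, −0.14 and −0.25, with a mean of −0.41 ± 0.28 (SD, n = 4), an FC of 1.33 lower and a limma adjusted p of 0.0253.

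The other 4 probes of that PER2 site had ratios below 0 on all 4 arrays as well. A_69_P002677 averaged −0.50 ± 0.40 (SD, n = 4) and was called at a limma adjusted p of 0.0351, a call lost without replicate 1, 2 or 3. A_69_P002678, A_69_P002679 and A_69_P002680 averaged −0.55, −0.31 and −0.38, with limma adjusted p of 0.0676, 0.0526 and 0.081, and were not called. Replicate 1 gave the lowest ratio with all 5, from −1.40 to −0.66. The call of the brightest probe was lost without replicate 1 (−0.29, limma adjusted p = 0.0655) and without replicate 2 (−0.39, limma adjusted p = 0.0802). Counting the mean over its tested probes as 1 alternative, the PER2 gene call was lost under 8 of 18 in all. The ratio stayed below 0 in each (from −1.03 to −0.20). The sixth PER2 probe, A_69_P006186 at chr6:24309364-24309423, was at background in all channels.

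PER1 and PER2 could be set against each other within arrays by their brightest tested probes. The log2 ratio of PER1 minus that of PER2 was 0.81, 0.21, −0.01 and −0.43 on the 4 arrays, with a mean of 0.14 ± 0.51 (SD, n = 4). The difference took both signs (two-sided exact sign-flip permutation test, p = 0.75, where 4 arrays cannot go below 0.125). This was the only one of 5 planned pairs of related genes (PER1 with PER2 and PER3, PER2 with PER3, CRY1 with CRY2, and NR1D1 with NR1D2) with a tested probe on both sides.

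PER3, CRY1 and CRY2 could not be tested. The cryptochromes hold PER proteins in the inhibitory complex and bind the ARNTL and CLOCK dimer directly. PER3 was at background in both channels of all 4 arrays. The 4 CRY1 probes, which overlap by 20 or 40 bases with their neighbours on transcript ENSECAT00000016114, had mean log2 ratios from −0.35 to 0.22 and signals of at most 28.74, and none was above background on all 4 arrays of a channel. The CRY2 probe, on transcript ENSECAT00000002968 at chr12:7915996-7916379, had signals from 23.41 to 29.58 in control and from 7.608 to 23.1 in HMB-treated channels. Its log2 ratio was −1.62, −0.76, −0.50 and −0.32 on the 4 arrays. All 4 values were below 0 and the channels did not overlap, but no channel was above background, so no FC is given. Spots at background hold a surrogate signal, and a log2 ratio of exactly 0 there is no measurement of equality.

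NR1D2 (REV-ERBβ) is a nuclear receptor that represses ARNTL. Its 4 tested probes did not give 1 answer. The brightest, A_69_P102811 at chr16:58960315-58960374, had signals of 1151, 985.4, 1183 and 1043 in control and 1143, 1030, 1461 and 948.8 in HMB-treated channels. These ranges overlapped, and the log2 ratio was −0.01, 0.06, 0.30 and −0.14, with a mean of 0.06 ± 0.19 (SD, n = 4) and a limma adjusted p of 0.624. A_69_P056986 and A_69_P056987, on transcript ENSECAT00000007967, averaged 0.03 ± 0.22 and 0.02 ± 0.20 (SD, n = 4), with limma adjusted p of 0.803 and 0.851. These 3 probes were not called, and their ratios took both signs across arrays.

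The fourth NR1D2 probe, A_69_P116531 at chr16:58961518-58961577, was called higher. It carries the same transcript name as the brightest probe (JL618863) but was much closer to background, with signals from 41.42 to 71.93 in control and from 64.54 to 100.7 in HMB-treated channels. Its log2 ratio was 0.57, 0.72, 0.49 and 0.26, with a mean of 0.51 ± 0.19 (SD, n = 4), an FC of 1.42 and a limma adjusted p of 0.00473. The ratio was above 0 on all 4 arrays, while the ranges of the channels overlapped. The call was lost with normexp and loess (0.18), with loess alone (0.27) and with limma's treat. Under spike-in scaling the ratio was −0.22, above the median of −0.67 over all probes. No probe of NR1D2 shares more than 7 bases in a row with another.

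BHLHE40 (DEC1), an E-box repressor that also responds to hypoxia and cytokines, was the repressor with the largest rise. Its probe reads transcript ENSECAT00000015869. The signal was 440.3, 307.7, 356.5 and 260.6 in control and 677.5, 440.5, 949.4 and 499.4 in HMB-treated channels. The highest control signal (440.3) and the lowest HMB-treated signal (440.5) nearly met. The log2 ratio was 0.62, 0.52, 1.41 and 0.94, with a mean of 0.87 ± 0.40 (SD, n = 4), an FC of 1.83 and a limma adjusted p of 0.00463. It was above 0 on all 4 arrays and highest on replicate 3, without which it was 0.69. The call was lost with the methods' t-test (adjusted p = 0.0631), with limma's treat (adjusted p = 0.0632), without a filter on dim probes (limma adjusted p = 0.0516) and under spike-in scaling (0.27, limma adjusted p = 0.212).

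**Figure D2:**
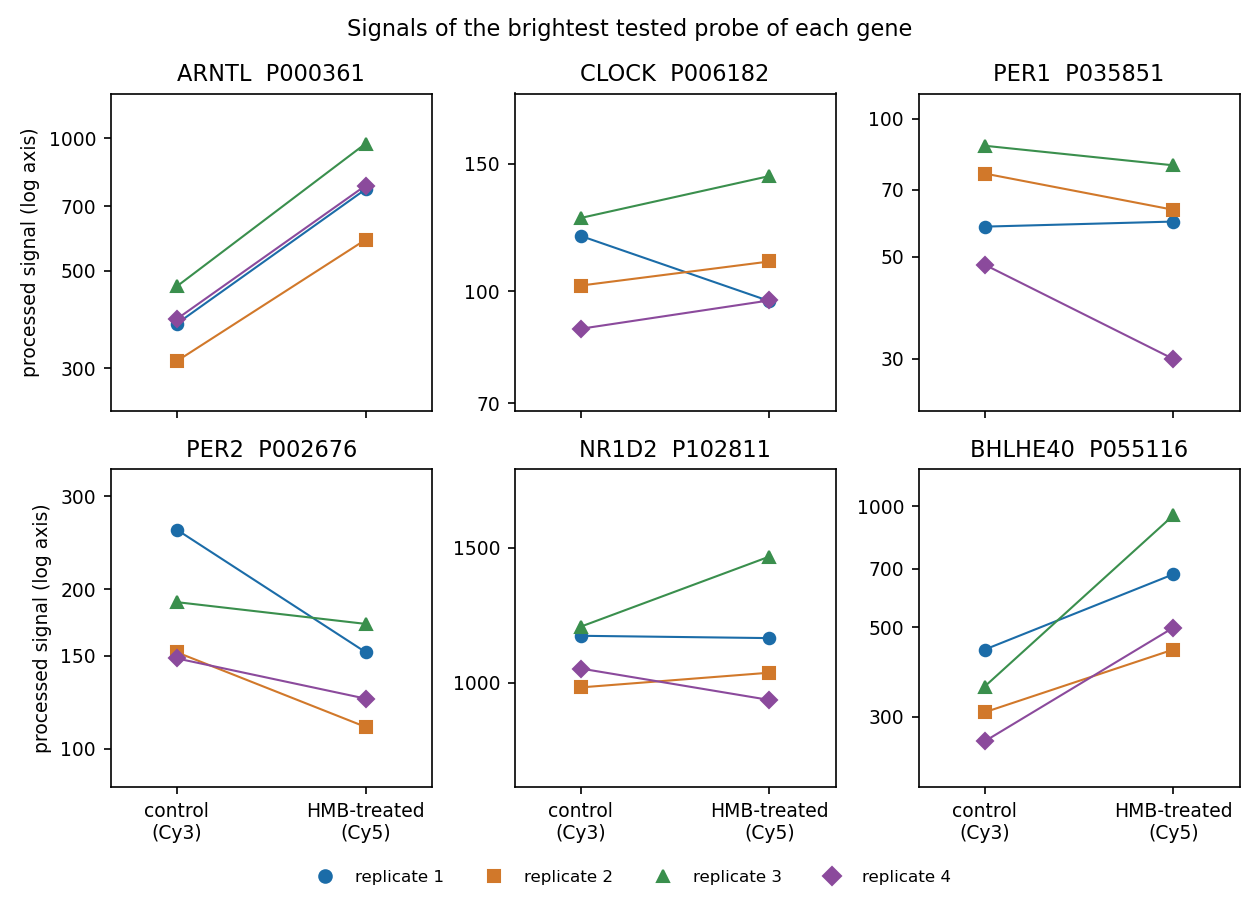
Processed signal (y axis, log scale, a separate range in each panel) of the brightest tested probe of each of the 6 tested clock genes in the control (Cy3) and HMB-treated (Cy5) channels, with a line joining the channels of 1 array. All 4 lines climb for ARNTL and BHLHE40 and all 4 descend for PER2, whereas those of CLOCK, PER1 and NR1D2 run both ways. Panels are not to be set against each other, since signals of different probes are not on 1 scale.

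Of the 16 tested clock probes, 3 (both of ARNTL and that of BHLHE40) had channels whose signals did not overlap. This is 18.8%, beside 21.7% of all tested probes.

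The activators were then compared with the repressors over all 24 probes, dim ones included. The 6 probes of ARNTL and CLOCK had a mean log2 ratio of 0.22, 0.39, 0.54 and 0.32 on replicates 1 to 4, which averaged 0.37 ± 0.13 (SD, n = 4). The 18 probes of the 7 repressor genes had −0.39, −0.06, 0.19 and −0.15, which averaged −0.10 ± 0.24 (SD, n = 4). Both means were lowest on replicate 1 and highest on replicate 3. The activators exceeded the repressors on 4 of 4 arrays, by 0.60, 0.46, 0.34 and 0.47, with a mean difference of 0.47 ± 0.11 (SD, n = 4). Of the 6 activator probes 5 were tested, and of the 18 repressor probes 11. The others were too dim to test, and some of them hold surrogate signals. With tested probes only, the difference was 0.54 ± 0.11 (SD, n = 4). No p is given, since the genes were chosen with earlier results of these arrays known.

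ARNTL carried most of this difference. The mean over its probes was 0.94 ± 0.09 and that over the 4 CLOCK probes 0.08 ± 0.19 (SD, n = 4), and the difference from the repressors was 0.19 with ARNTL left out. Among the repressors, tested probe means ran from −0.55 (PER2 A_69_P002678) to 0.87 (BHLHE40), and 2 of their 11 tested probes were called higher and 2 lower. With BHLHE40 and NR1D2 left out, so that only PER and CRY probes stood against the activators, the difference was 0.62. It was 0.38 when the overlapping PER2 probes counted as 1.

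**Figure D3:**
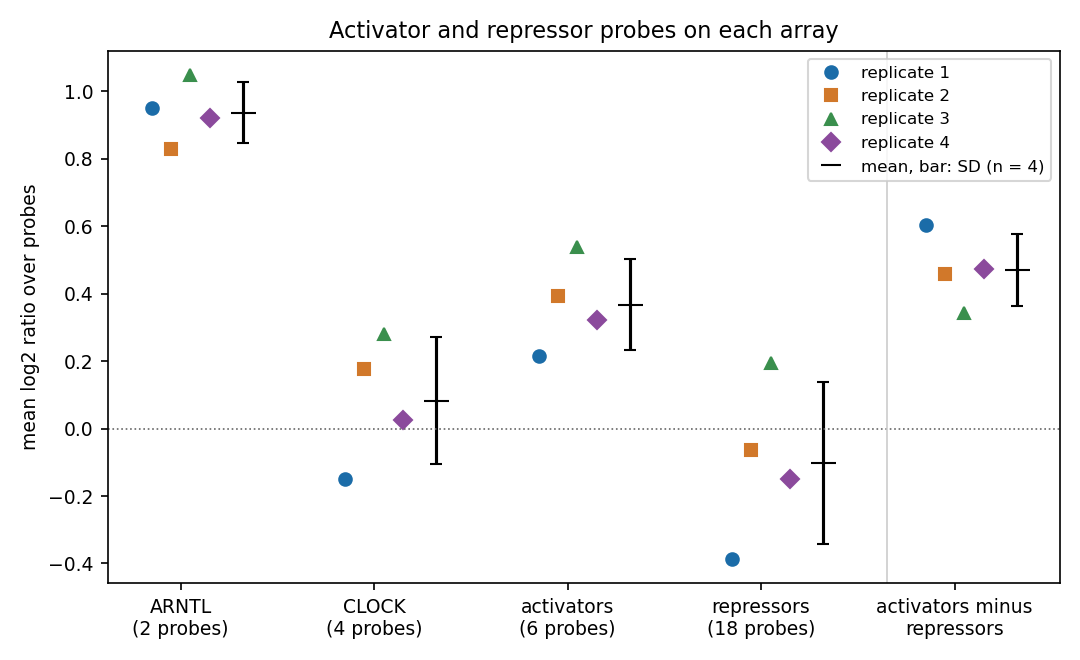
Mean log2 ratio over probes (y axis) on each array for ARNTL, CLOCK, both activators together, the repressors, and the difference of the last 2, with the mean and SD of 4 arrays beside the symbols. The activators lie above the repressors on every array, by 0.34 to 0.60, and ARNTL (0.83 to 1.05) lies above CLOCK (−0.15 to 0.28).

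A list of 45 further genes of the clock pathway was examined with the same fit, and 33 of them had a tested probe. Of these, 4 were called higher (NAMPT, DBP, ARNTL2 and WEE1) and 5 lower (PRKAA2, KLF10, SIRT1, DDX6 and USP2), beside the 10.0% and 17.2% of all symbols given above. PRKAA2, KLF10 and USP2 entered the test through the control channel only, the one where they are higher. In HMB-treated channels they stood above background on 1, 1 and 3 arrays. The median log2 ratio over these 33 genes was −0.11. Among partner transcription factors, 1 of 1 tested was higher, and among output factors 1 of 1 was higher. Among kinases, phosphatases and ubiquitin ligases of the clock, 0 of 15 were higher and 1 was lower. Among cofactors and metabolic links, 2 of 16 were higher and 4 lower.

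Among the partners and outputs, ARNTL2, the paralog of ARNTL, had log2 ratios of 0.95, 0.65, 0.31 and 0.50, all above 0, with signals of 788.3 to 1069 in control and 1132 to 1522 in HMB-treated channels. It averaged 0.60 ± 0.27 (SD, n = 4) with a limma adjusted p of 0.00582. The call was lost with the methods' t-test (adjusted p = 0.0611), with limma's treat (adjusted p = 0.259) and under spike-in scaling (0.03). DBP, a transcription factor driven by ARNTL and CLOCK through E-boxes, had signals of 50.38 to 81.5 in control and 118.3 to 186.7 in HMB-treated channels, which did not overlap. Its log2 ratio was 0.73, 1.01, 1.29 and 1.23, with a mean of 1.07 ± 0.25 (SD, n = 4), an FC of 2.09 and a limma adjusted p of 5.20e-04. The DBP ratio was 0.42 with normexp and loess, 0.64 with loess alone and 0.40 under spike-in scaling, and stayed called. NPAS2, which can replace CLOCK, was above background on 3 control and 1 HMB-treated channels and was not tested, with signals of 22.05 to 44.74 and 18.16 to 35.02. RORA, an activator of ARNTL, was at background in all channels, with signals of 4.603 to 15.4 in control and 13.9 to 26.93 in HMB-treated channels. NFIL3 and BHLHE41 are not analysed here.

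Among the cofactors, NAMPT, the rate-limiting enzyme of NAD+ salvage and a known clock target, gave the largest rise of the 33 tested genes, with log2 ratios of 1.37, 1.44, 1.24 and 1.20. Its signal was 809.5 to 1151 in control and 2175 to 2712 in HMB-treated channels, so the channels were far apart. The mean was 1.31 ± 0.11 (SD, n = 4), with an FC of 2.48 and a limma adjusted p of 4.14e-05. SIRT1, the NAD+-dependent deacetylase that acts on ARNTL and PER2, was lower at −0.51 ± 0.22 (SD, n = 4) with a limma adjusted p of 0.00631. The SIRT1 call was lost with normexp and loess (−0.13), with loess alone (−0.24), with the methods' t-test (adjusted p = 0.0569) and with limma's treat (adjusted p = 0.531). WEE1, a cell cycle kinase under E-box control, had 0.86, 0.78, 0.14 and 0.28, with a mean of 0.51 ± 0.36 (SD, n = 4) and a limma adjusted p of 0.0225, and replicates 1 and 2 were well above the others. The WEE1 call was lost without replicate 1 (0.40) or 2 (0.42), with the methods' t-test, limma's treat, normexp and loess (0.35) and no filter on dim probes, and under spike-in scaling the ratio was −0.13.

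PRKAA2, a catalytic subunit of AMPK that phosphorylates CRY proteins, was lower at −0.76 ± 0.20 (SD, n = 4, limma adjusted p = 0.00114). KLF10, a clock-controlled repressor, was lower at −0.74 ± 0.44 (SD, n = 4, limma adjusted p = 0.0117). Both were above background in only 1 of the 4 HMB-treated channels, so their ratios rest on dim signals. With normexp and loess and with loess alone, the ratio of PRKAA2 was −0.19 and −0.26 and that of KLF10 −0.17 and −0.23, and both calls were lost. The KLF10 call was also lost with the methods' t-test, limma's treat and no filter on dim probes. DDX6, an RNA helicase, had 2 of 4 probes called, and its brightest gave −0.39 ± 0.30 (SD, n = 4, limma adjusted p = 0.0365). The DDX6 call was lost under 10 of 18 alternatives, among them without replicate 1, 2 or 4. USP2 had a ratio of −0.39 (limma adjusted p = 0.0138), and its call was lost under 6 of 17 alternatives. Among these were normexp and loess (−0.13), loess alone (−0.13) and leaving out replicate 1 (−0.29).

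**Figure D4:**
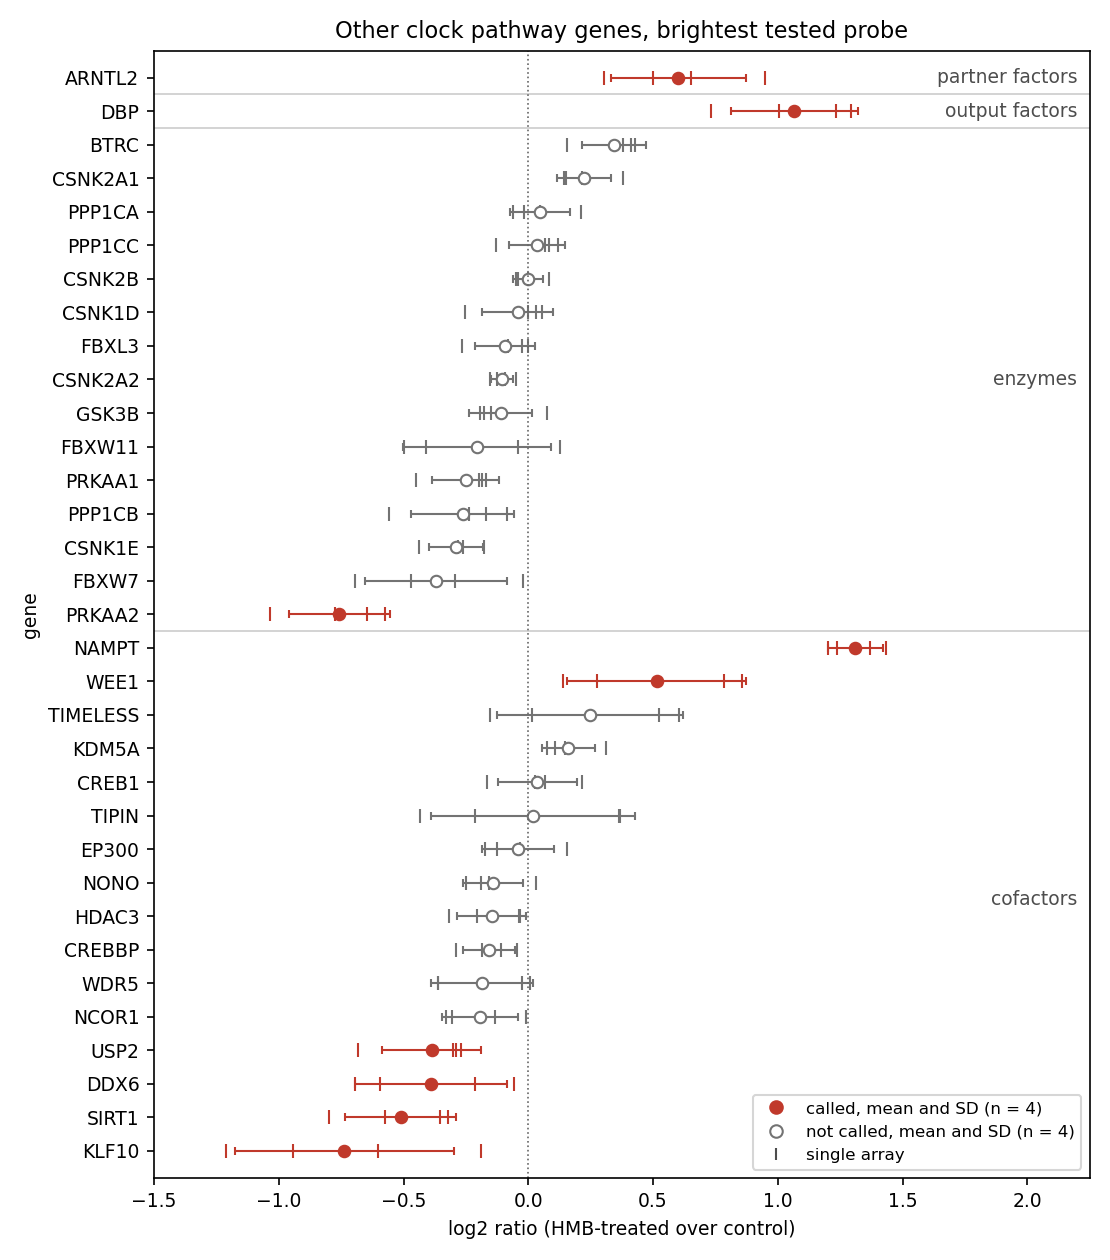
Log2 ratio (x axis) of the brightest tested probe of the 33 further clock pathway genes with one, by group, with the mean (circle), SD (bar) and single arrays (ticks). Filled red circles are called genes. ARNTL2, DBP, NAMPT and WEE1 lie to the right and PRKAA2, KLF10, SIRT1, DDX6 and USP2 to the left, while 1 of the 15 enzymes was called.

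**Figure D5:**
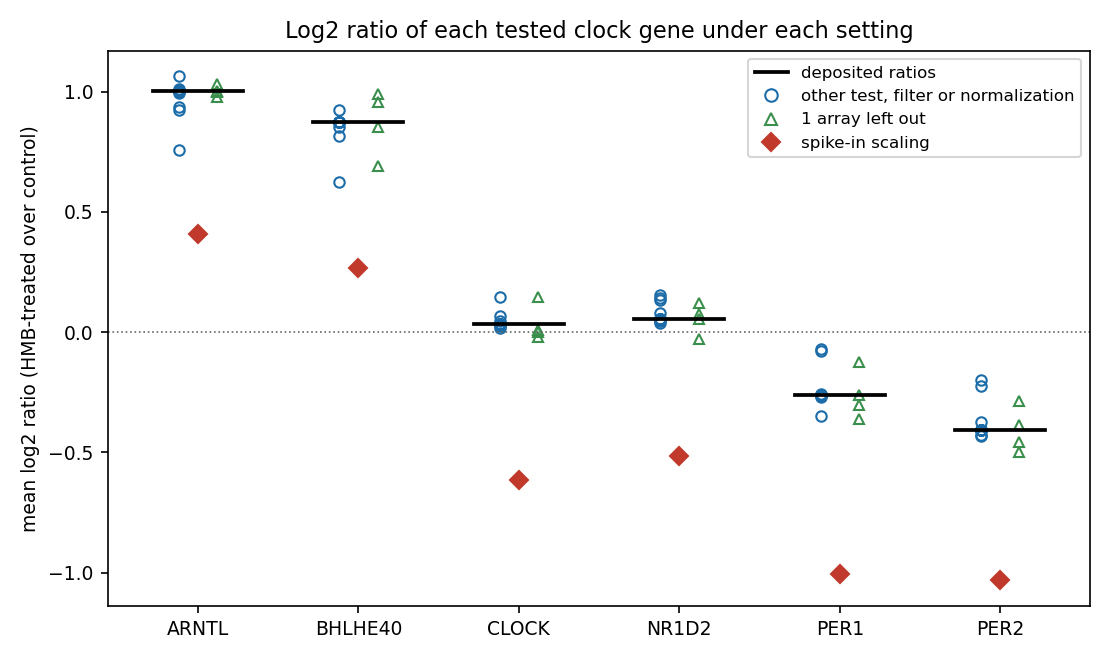
Mean log2 ratio (y axis) of the brightest probe of the 6 tested clock genes with the deposited ratios (black bar), with other tests, filters or normalizations (circles), with 1 array left out (triangles) and under spike-in scaling (red diamonds). For each gene, 1 circle is the mean over its tested probes. ARNTL and BHLHE40 stay above 0 and PER1 and PER2 below 0 under every setting, whereas CLOCK and NR1D2 lie near 0, or at −0.61 and −0.52 under spike-in scaling, which puts the median of all probes at −0.67.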

How the data were processed

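Gene expression was measured on 4 two-colour Agilent horse arrays (EquCab1 per the file headers). The authors' scanner files hold each spot's intensity before and after background subtraction, linear and lowess normalization, and the deposited log10 ratio of Cy5 (HMB-treated) over Cy3 (control), written by Feature Extraction 10.10.1.1. From these deposited ratios, log2 ratios were computed here by a change of base. Feature Extraction puts a surrogate in place of a signal near background, which compresses the ratios of dim probes.

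The test was limma's moderated test of the mean ratio against 0 (limma 3.58.1 and statmod 1.5.0 in R 4.3.3), and p-values were adjusted by Benjamini-Hochberg over 24669 tested probes. A call required an adjusted p of at most 0.05 and an FC of at least 1.3, after the methods of the study. Probes entered the test if a channel stood well above background on each of the 4 arrays and at least 3 arrays gave a ratio. Marked spots were left out (0 of those of the clock probes), and no spot was saturated. A gene with several probes was given by its brightest tested probe, with the others beside it. The code was checked on simulated data. Depth does not apply, and the number of arrays limits the precision.

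The genes and lists were chosen with earlier results of these data known. All clock probes were named. Of the further clock genes, the 4 largest rises and 4 largest falls among called genes were named, along with NPAS2, ARNTL2, DBP, NFIL3, RORA and BHLHE41. The alternatives in the test were limma's treat, the methods' t-test, and an intensity trend together with robust moderation. Those in the normalization were normexp (offset 50) or no background correction with loess, median centering, spike-in scaling, scaling between arrays and a GC correction. Others were different filters, the mean over the probes of a gene, the authors' table and each replicate left out. Counting the PER2 site once and leaving out ARNTL were added after the data were seen. The miRNA and protein data of the study were not analysed here, and 1 list of cell type markers is not reported here.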

Additional observations from a re-analysis of the deposited data

Results flagged for a closer look

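Single arrays that stood apart were sought in 16 tested clock probes and 33 further clock genes, with Dixon's test, which sets the gap between the extreme array and its neighbour against the range of the 4 arrays. Chance marks about 1 in 20 such groups, and 5 were marked here. For the brightest CLOCK probe, A_69_P006182, replicate 1 had a log2 ratio of −0.30 while the others lay between 0.11 and 0.19. For PER2 A_69_P002678, replicate 1 had −1.40 while the others lay between −0.34 and −0.13. Replicate 1 also stood apart for USP2, at −0.68 against −0.30 to −0.27. Replicate 3 stood apart for GSK3B, at 0.076 against −0.19 to −0.15, and for PRKAA1, at −0.45 against −0.20 to −0.17. The cause was not tested.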

How the results depend on the processing

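ARNTL, DBP and NAMPT stayed called in the same direction under all 18 alternatives run for each. Some of these could hardly change the result. The authors' table holds the same log10 ratios to within 3.96e-05, and keeping marked spots left the ratios of these genes unchanged. DBP and NAMPT have 1 probe each, so the mean over probes is that probe. The counts of calls moved more. The clock probes called higher were 4 with the deposited ratios, 2 with limma's treat and 1 under spike-in scaling, and those called lower were 2, against 0 with the methods' t-test, treat, normexp with loess, loess alone and no filter on dim probes, 1 with median centering and with scaling between arrays, and 12 under spike-in scaling. By gene, the number higher was 1 in place of 2 with the t-test, treat, spike-in scaling and no filter, and the number lower was 0 in place of 1 with these except spike-in scaling, where it was 4, and also with normexp and loess, loess alone and median centering. Of the further clock genes, 2 were higher in place of 4 with the t-test, treat and spike-in scaling, and in place of 5 lower there were 1 with the t-test and treat, 0 with normexp and loess and with loess alone, 27 under spike-in scaling and 2 with no filter or with both channels above background. These last 2 settings tested 41 and 30 genes in place of 33. Requiring both channels above background left PRKAA2, KLF10 and USP2 untested. The difference of activators and repressors was 0.29 with normexp and loess, 0.33 with loess alone, 0.62 with PER and CRY genes as the only repressors and 0.19 with ARNTL left out. Over all probes, 7046 were called with the deposited ratios, 2822 with treat, 3539 with normexp and loess, 4440 with loess alone and 20165 under spike-in scaling.

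Spike-in scaling moved the median of all tested probes to −0.67 and, by this common shift, turned the signs of CLOCK (−0.61, and −0.61 and −0.49 for A_69_P003496 and A_69_P006183), NR1D2 (−0.52, and −0.60, −0.65 and −0.22 for A_69_P056986, A_69_P056987 and A_69_P116531) and WEE1 (−0.13). With 1 array left out, the clock probes called higher stayed at 4 and those lower ranged from 0 to 2, the genes higher stayed at 2 and those lower ranged from 0 to 1, the further genes ranged from 3 to 4 higher and from 3 to 5 lower, and the activators against repressors from 0.43 to 0.51. Signs turned close to 0 for CLOCK (−0.019 to 0.14), NR1D2 (−0.028 to 0.12), A_69_P056986 (−0.061 to 0.093) and A_69_P056987 (−0.035 to 0.084). The PER2 gene call was lost without replicate 1 and without replicate 2. The causes of these moves were not tested. The test of the ratios is already paired, since each array holds both RNAs. Beyond this, with a replicate block, no paired analysis was possible because the block needs a second group of arrays.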
